A study of Homo sapiens with 9 samples.

Results

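The 10 genes described here encode the 3 lipins, the acyltransferases that build triglyceride and 3 lipases that take it apart: GPAM, AGPAT2, LPIN1, LPIN2, LPIN3, DGAT1, DGAT2, PNPLA2, PNPLA3 and MGLL. They were taken by name from the 26475 rows of the deposited count table, and all 10 passed the filter on low counts that left 14135 genes to test. The set was chosen by function after earlier results of these libraries were known, among them the high level of LPIN1 with PRGL493. For these 10 genes the PRGL493 libraries are therefore described by their levels and differences, with no p-value. Where such a gene is counted as called in a comparison with PRGL493, this describes the libraries and is no test of the gene. The further lists below were also drawn up with earlier results known, and genes were named from them mainly by smallest adjusted p. The p-values printed below, those of the knockdown included, are therefore not independent of how the genes were chosen.

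RNA was sequenced from MDA-MB-231 cells, an established human line of triple-negative breast cancer, in 3 groups of 3 libraries. All 3 groups carried the pLKO.1 lentiviral vector: the control cells the empty vector, the knockdown cells the vector with a hairpin RNA against ACSL4 (pLKO.1-shACSL4), and the PRGL493 group was the empty-vector control line given PRGL493, an inhibitor of ACSL4. The 3 libraries of a group came from different batches of one stable population, so the p-values speak for batch-to-batch spread alone, and the labels name 1 hairpin construct and no dose, time or vehicle for PRGL493. Both treatments were compared with the same 3 control libraries.

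Triglyceride is made in the endoplasmic reticulum by adding fatty acyl-CoA to glycerol 3-phosphate step by step. GPAM and AGPAT2 make lysophosphatidate and phosphatidate, the lipins remove the phosphate to give diacylglycerol, and DGAT1 or DGAT2 adds the last acyl chain. Stored triglyceride is cut by PNPLA2 (adipose triglyceride lipase) to diacylglycerol, and MGLL ends the series by cutting monoacylglycerol. ACSL4, the targeted gene, is an acyl-CoA synthetase that prefers arachidonate and other polyunsaturated fatty acids, and acyl-CoA is the substrate of the acyltransferases.

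Levels are given as CPM, which corrects each count for its library's total and for edgeR's TMM scaling factor, and library totals ran from 28673940 to 43027217 counts. ACSL4 itself stood at 342, 339 and 366 CPM in control replicates 1 to 3, at 29.5, 23.7 and 27.6 in the knockdown and at 333, 349.9 and 360.0 with PRGL493. The knockdown libraries were all below the control (-3.69 on the log2 scale), and the PRGL493 libraries overlapped it. The cells' known markers were present: VIM, CD44, AXL, CAV1, EGFR and MSN summed to between 5784 and 6164 CPM in every library, while ESR1 and PGR, which this line lacks, had at most 6 counts. The other luminal breast markers listed, ERBB2, CDH1, GATA3 and KRT18, passed the filter on low counts. They averaged 75.3, 2.02, 11.1 and 392 CPM in control. Among markers of other triglyceride-handling cells, none of 6 hepatocyte genes and 3 of 9 adipocyte genes (PLIN1, PLIN4 and LPL) passed the filter on low counts; FABP4, CIDEA, APOB and TTR had no count in any library. LPL was the exception in level, at 10.3 CPM in control, 10.7 in the knockdown and 4.16 with PRGL493, and the adipocyte list summed to 10.6 to 12.9, 11.3 to 12.5 and 4.33 to 6.08 CPM in these groups. All libraries came from cultures of MDA-MB-231, so these levels are read as those of the line, and admixture of other cells was not tested. Knockdown replicate 2 stood apart from the rest of its group: its counts differed from knockdown replicates 1 and 3 by a chi-square of 34.1 and 19.2 per degree of freedom, against 4.04 to 10.1 for all other replicate pairs. Where leaving it out changed a call in the knockdown comparison or moved a value by over 1.5 times, both values are given.

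RefSeq promoter windows were read as the 250 bases before a transcript start on GRCh38.p14. Those of 5 of the 10 genes were used (8 windows: LPIN1, LPIN2, GPAM, AGPAT2 and PNPLA2). No window of the other members was used, so their motifs are not described, whether or not RefSeq holds such windows. Those of LPIN1, LPIN2, AGPAT2 and PNPLA2 are shown, since all PRGL493 libraries lay above all libraries of both other groups for these 4 genes and not for GPAM. Where a gene had more than 1 window, the one whose start lay nearest to a GENCODE transcript start is given. The LPIN1 window is chr2:11746382-11746631 on the + strand (2 bases from a GENCODE start), and the LPIN2 window is chr18:3011948-3012197 on the - strand (0 bases). The AGPAT2 window is chr9:136687458-136687707 on the - strand, and the PNPLA2 window is chr11:818664-818913 on the + strand. Each is written 5′ to 3′ in the gene's direction and ends at the base before the start. Capitals mark matches on either strand to 1 of 4 searched motifs: the sterol element TCACNCCAC, the E-box CACGTG, the CCAAT box CCAAT and the GC box GGGCGG.
LPIN1: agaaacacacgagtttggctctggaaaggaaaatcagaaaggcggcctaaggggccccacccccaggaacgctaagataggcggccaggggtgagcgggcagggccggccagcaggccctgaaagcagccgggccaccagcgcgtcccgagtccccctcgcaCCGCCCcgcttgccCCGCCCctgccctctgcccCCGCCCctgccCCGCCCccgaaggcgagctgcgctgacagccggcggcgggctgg
LPIN2: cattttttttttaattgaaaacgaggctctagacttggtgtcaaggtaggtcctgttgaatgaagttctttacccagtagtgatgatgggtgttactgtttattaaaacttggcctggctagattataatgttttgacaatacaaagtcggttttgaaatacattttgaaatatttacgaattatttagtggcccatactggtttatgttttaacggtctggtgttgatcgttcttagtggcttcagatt
AGPAT2: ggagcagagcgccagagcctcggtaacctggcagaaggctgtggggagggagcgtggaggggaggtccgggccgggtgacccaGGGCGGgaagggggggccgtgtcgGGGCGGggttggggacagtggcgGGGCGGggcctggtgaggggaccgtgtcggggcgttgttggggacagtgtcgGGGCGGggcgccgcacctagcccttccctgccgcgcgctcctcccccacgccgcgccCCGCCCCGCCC
PNPLA2: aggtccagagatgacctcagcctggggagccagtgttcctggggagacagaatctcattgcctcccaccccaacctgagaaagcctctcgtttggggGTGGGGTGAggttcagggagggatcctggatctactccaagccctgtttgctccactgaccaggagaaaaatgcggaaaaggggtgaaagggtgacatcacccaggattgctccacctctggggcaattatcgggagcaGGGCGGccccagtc
The LPIN1 window held 4 GC boxes and the AGPAT2 window 6, with none of the other motifs. The LPIN2 window held none of the 4 motifs; its other window, not shown, whose start was 171 bases from a GENCODE start, had an E-box at position -210 and 4 GC boxes. Of the other 2 LPIN1 windows, 1 had a single GC box and 1 had no match. PNPLA2 was alone among the 8 windows in holding a sterol element, read on the reverse strand as GTGGGGTGA from position -153, and it had 1 GC box. Among all 35116 RefSeq windows cut the same way, 0.883% held a sterol element, 6.34% an E-box, 32.0% a CCAAT box and 42.6% a GC box. These matches describe letters in the windows, and no binding was measured here.

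In the knockdown 5 of the 10 genes passed the test against control (edgeR's quasi-likelihood test, Benjamini-Hochberg adjusted p below 0.05 over all genes tested). All 3 lipins and DGAT1 fell and MGLL rose, each by less than 0.5 on the log2 scale. Over all genes tested 30.1% were called, 14.7% higher and 15.3% lower, against 1 and 4 of the 10 here. With PRGL493, LPIN1, PNPLA3, PNPLA2 and LPIN2 were called higher and MGLL lower, 5 of 10 where 41.8% of all genes were called, 21.4% higher and 20.4% lower; since this comparison helped choose the genes, nothing is read from that count. The median log2 difference of the 10 genes was -0.04 in the knockdown and 0.18 with PRGL493, beside 0.00 and 0.01 over all genes tested. These are differences in RNA from whole cultures, where fewer cells holding a transcript and less of it per cell cannot be told apart, and enzyme protein and lipid were not measured.

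**Figure D1:**
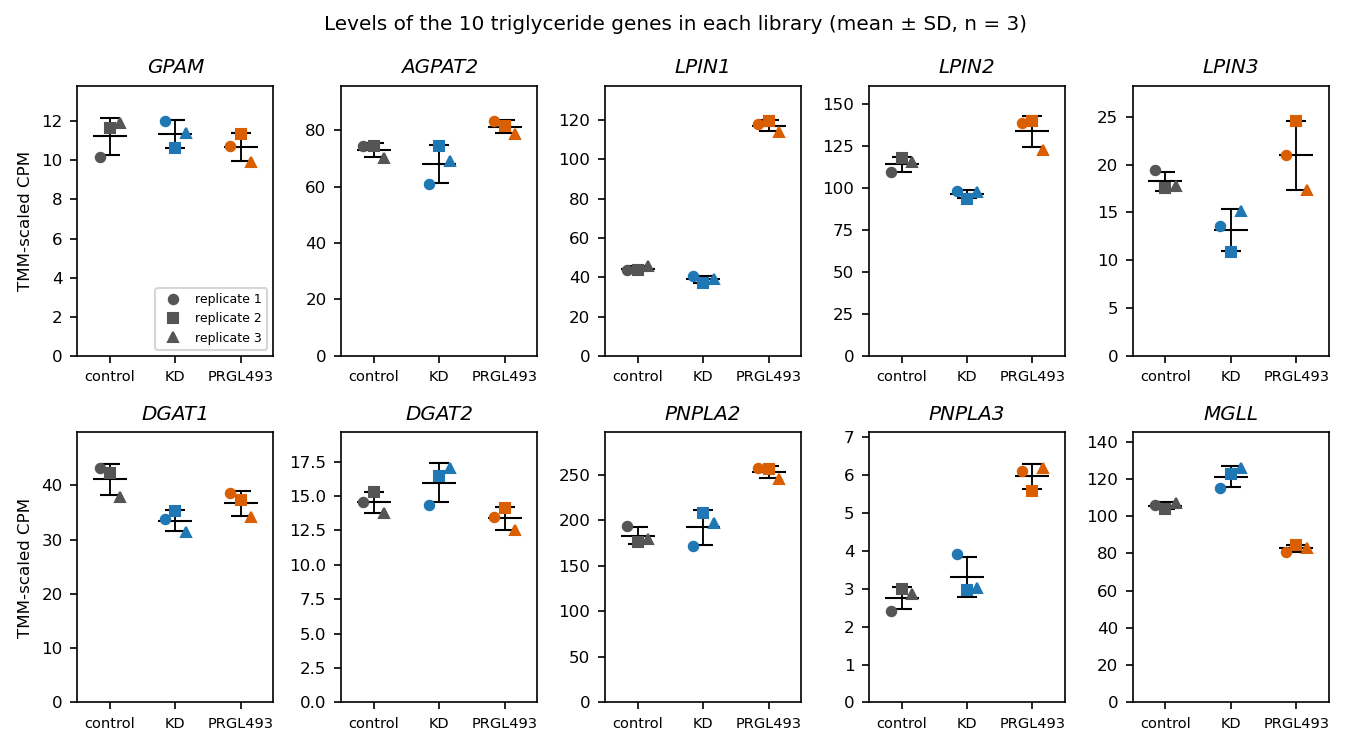
TMM-scaled CPM (y axis, from 0) of the 10 genes in each of the 9 libraries, by group (x axis: control, KD for the ACSL4 knockdown, PRGL493), with marker shape for the replicate number and bars for mean ± SD (n = 3). LPIN1 and PNPLA3 show the widest gaps between PRGL493 and the other groups, and GPAM shows 3 overlapping groups.

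GPAM (chr10:112149864-112215377, - strand; gene positions are from GENCODE 29 on GRCh38), the mitochondrial glycerol-3-phosphate acyltransferase that begins the pathway, was the member whose level varied least between groups. Control libraries held it at 10.2, 11.6 and 11.9 CPM, and it was at 12.0, 10.6 and 11.4 in the knockdown and at 10.8, 11.3 and 9.91 with PRGL493. All 3 groups overlapped. The knockdown difference was 0.01, SE 0.09 (edgeR adjusted p = 0.92), with a 95% interval of -0.17 to 0.20, and the PRGL493 difference was -0.08 (interval -0.27 to 0.12).

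AGPAT2 (chr9:136673143-136687423, - strand), which makes phosphatidate on the endoplasmic reticulum, was at 74.5, 74.4 and 70.2 CPM in control, 60.9, 74.4 and 69.0 in the knockdown and 83.2, 81.6 and 78.7 with PRGL493. Knockdown replicate 1 was the low library of its group, and the other two reached the control range. The knockdown difference of -0.10, SE 0.07 did not pass the test (edgeR adjusted p = 0.276), but without knockdown replicate 2 it was -0.17 and did, and without knockdown replicate 1 it was -0.02. All 3 PRGL493 libraries lay above all control libraries by a small margin (0.15, interval 0.01 to 0.29).

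LPIN1 (chr2:11677595-11827409, + strand), the founding member of the lipin family of phosphatidate phosphatases, was at 43.6, 43.5 and 45.8 CPM in control, 40.6, 36.9 and 39.1 in the knockdown and 118, 119 and 114 with PRGL493. The 3 groups formed 3 separate levels, with the knockdown lowest and PRGL493 far above the other two. The fall in the knockdown was small (-0.19, SE 0.06; edgeR adjusted p = 0.0197). Without control replicate 3, the highest control library, it was -0.16 and no longer passed, and scaling by library totals alone also ended the call. With PRGL493 the level was 2.64-fold that of control (1.40, SE 0.06, interval 1.28 to 1.52), the rise ranked 28 among the 14135 genes. It moved between 1.38 and 1.43 when any 1 library was left out.

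LPIN2 (chr18:2916994-3013315, - strand), the lipin with the highest level per exon length in all 9 libraries, was at 109, 118 and 115 CPM in control, 97.9, 93.3 and 97.5 in the knockdown and 138, 139.6 and 123 with PRGL493. Again the groups did not overlap, and their order was the same as for LPIN1. The knockdown fell by 0.24 on the log2 scale (SE 0.06; edgeR adjusted p = 0.00462), with every knockdown library below every control library. PRGL493 replicate 3 lay closest to the control, and the PRGL493 difference was 0.23, SE 0.06 (1.17-fold, interval 0.11 to 0.35).

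LPIN3 (chr20:41340920-41360582, + strand), the least studied of the family, was at 19.4, 17.6 and 17.7 CPM in control, 13.6, 10.8 and 15.2 in the knockdown and 21.0, 24.5 and 17.4 with PRGL493. The knockdown libraries were all below the control (-0.47, SE 0.13; edgeR adjusted p = 0.0173), with replicate 2 the lowest, and without that replicate the difference was -0.34 and still passed. Without control replicate 1 it was -0.42, and without knockdown replicate 1 it was -0.49, and in both cases it no longer passed. PRGL493 libraries spread on both sides of the control (0.20, interval -0.08 to 0.48), and the difference was 0.07 without PRGL493 replicate 2 and 0.31 without PRGL493 replicate 3. EMILIN3, which overlaps LPIN3 on the opposite strand, had at most 6.07 counts in any library.

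Levels of different genes were compared as CPM per kb of exon (exon union from GENCODE 29, which may differ from the authors' annotation). The union takes in the exons of every annotated transcript: 11861 bases for LPIN1, 6800 for LPIN2 and 4568 for LPIN3. Which transcripts the cells made was not examined. Shares and orders between genes therefore depend on these lengths, and their SDs show replicate spread alone. By that measure the summed lipin RNA was 24.0, 24.8 and 24.7 in control, 20.8, 19.2 and 21.0 in the knockdown and 34.9, 36.0 and 31.5 with PRGL493. The sum was lower in every knockdown library and higher in every PRGL493 library than in any control library. LPIN2 made up 68.4% ± 1.40 of it in control (SD, n = 3), LPIN3 16.3% ± 1.23 and LPIN1 15.3% ± 0.437. In the knockdown the shares were 69.7% for LPIN2, 14.2% for LPIN3 and 16.2% for LPIN1. With PRGL493 the LPIN1 share was 29.03% ± 1.36 and the LPIN2 share 57.6% ± 0.646, neither of which overlapped its control range.

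**Figure D2:**
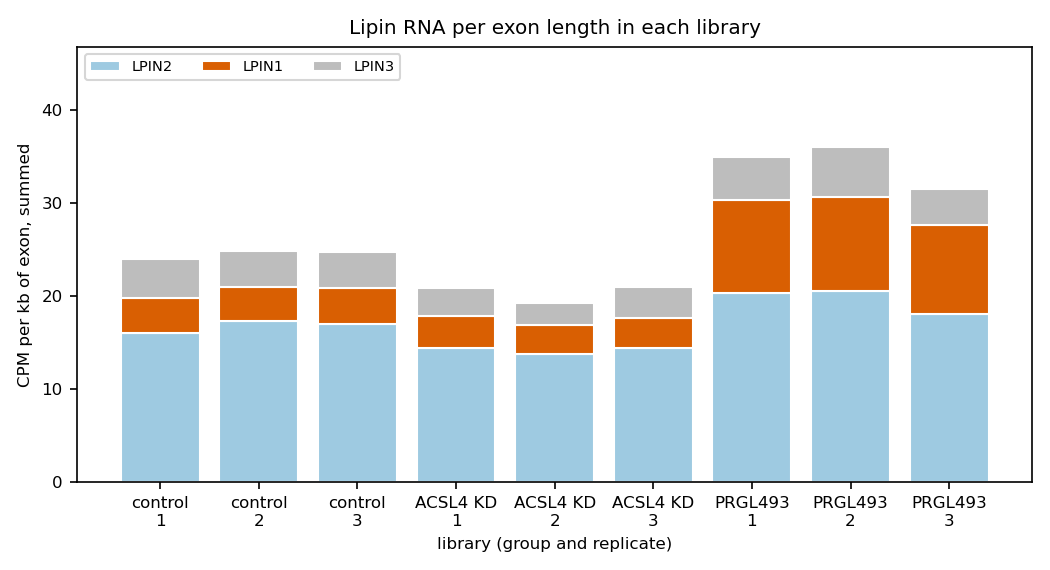
Stacked CPM per kb of exon of LPIN2, LPIN1 and LPIN3 (y axis, from 0) in each library (x axis, by group and replicate). The bars reach 19.2 to 21.0 in the knockdown, 24.0 to 24.8 in control and 31.5 to 36.0 with PRGL493, and the LPIN1 segment is widest in the PRGL493 libraries.

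The phosphatase that activates lipins by removing their inhibitory phosphates is a complex of CTDNEP1 and its partner CNEP1R1. CTDNEP1 was at 134, 137 and 131 CPM in control and 149, 153 and 158 in the knockdown, where it rose (0.19, SE 0.05; edgeR adjusted p = 0.00898). With PRGL493 it overlapped the control (129.7 CPM on average). CNEP1R1 was at 18.0 CPM in control, 20.2 in the knockdown and 16.3 with PRGL493. Its knockdown difference of 0.17 missed the threshold (edgeR adjusted p = 0.0679); it passed with upper-quartile factors (0.20) and with library totals alone (0.21).

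DGAT1 (chr8:144314584-144326910, - strand), one of the acyltransferases that complete triglyceride, was at 43.3, 42.3 and 37.8 CPM in control, 33.7, 35.3 and 31.4 in the knockdown and 38.7, 37.2 and 34.2 with PRGL493. Every knockdown library was below every control library (-0.30, SE 0.07; edgeR adjusted p = 0.00464). The PRGL493 libraries reached into the control range (-0.16, interval -0.31 to -0.01). DGAT1 overlaps HSF1 on the opposite strand, and its estimated counts were not whole in 7 of the 9 libraries. HSF1 averaged 112 CPM in control, 113 in the knockdown and 116 with PRGL493.

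DGAT2 (chr11:75759512-75801535, + strand), the other enzyme of that step and unrelated to DGAT1 in sequence, was at 14.6, 15.3 and 13.8 CPM in control, 14.4, 16.5 and 17.1 in the knockdown and 13.5, 14.2 and 12.5 with PRGL493. Both treated groups overlapped the control. The knockdown difference was 0.13 (interval -0.04 to 0.31; edgeR adjusted p = 0.252; 0.21 without knockdown replicate 1 and 0.08 without replicate 3), and that with PRGL493 was -0.12 (interval -0.30 to 0.06). The groups on either side of the control did separate from each other: every knockdown library was above every PRGL493 library, by 0.25 on the log2 scale (interval 0.08 to 0.43). That difference was 0.20 without knockdown replicate 3 and 0.22 without PRGL493 replicate 3, and in both cases it was no longer called.

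PNPLA2 (chr11:818902-825573, + strand), the lipase of the first step of triglyceride breakdown, had the highest level per exon length of the 10 genes. It was at 194, 176 and 179 CPM in control, 171, 208 and 197 in the knockdown and 258, 256 and 245 with PRGL493. The knockdown libraries scattered around the control, replicate 1 below it and replicate 2 highest (0.07, SE 0.06; edgeR adjusted p = 0.453). Without knockdown replicate 2 that difference was 0.01, and without knockdown replicate 1 it was 0.15 and passed; it was 0.11 without control replicate 1 and 0.04 without control replicate 2. All PRGL493 libraries stood above all others, 1.38-fold the control level (0.47, SE 0.06, interval 0.33 to 0.60).

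PNPLA3 (chr22:43923739-43964488, + strand), a close relative of PNPLA2 found on lipid droplets, was the scarcest of the set, with 74 to 251 counts per library. Its level was 2.42, 2.99 and 2.87 CPM in control, 3.92, 2.98 and 3.03 in the knockdown and 6.10, 5.59 and 6.20 with PRGL493. The knockdown overlapped the control (0.26, SE 0.15, interval -0.04 to 0.57; edgeR adjusted p = 0.184), and the difference was 0.12 without knockdown replicate 1, the highest of its group. With PRGL493 every library was above every other library, at 2.16-fold the control (1.11, SE 0.14, interval 0.81 to 1.41), the rise ranked 76 of 14135. SAMM50, which overlaps PNPLA3 on the same strand and could share reads with it, averaged 38.8 CPM in control and 40.3 with PRGL493. Estimated counts of PNPLA3 and SAMM50 were whole in all 9 libraries, and sharing of reads was not tested.

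MGLL (chr3:127689062-128052190, - strand), which cuts monoacylglycerol to glycerol and fatty acid, went the opposite way to LPIN1 and LPIN2 in both treatments. Control libraries had 106, 104 and 107 CPM of it, against 115, 123 and 126 in the knockdown and 80.7, 84.4 and 83.0 with PRGL493. The 3 groups did not overlap. MGLL rose in the knockdown (0.20, SE 0.05; edgeR adjusted p = 0.00807), and the control level was 1.28-fold that with PRGL493 (-0.35, SE 0.05, interval -0.46 to -0.24). SEC61A1, on the opposite strand of the same locus, averaged 489.8 CPM in control, 533 in the knockdown and 494 with PRGL493. Whether its reads were counted apart from those of MGLL is not given in the sources used here. Estimated counts of MGLL and SEC61A1 were whole in all 9 libraries.

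**Figure D3:**
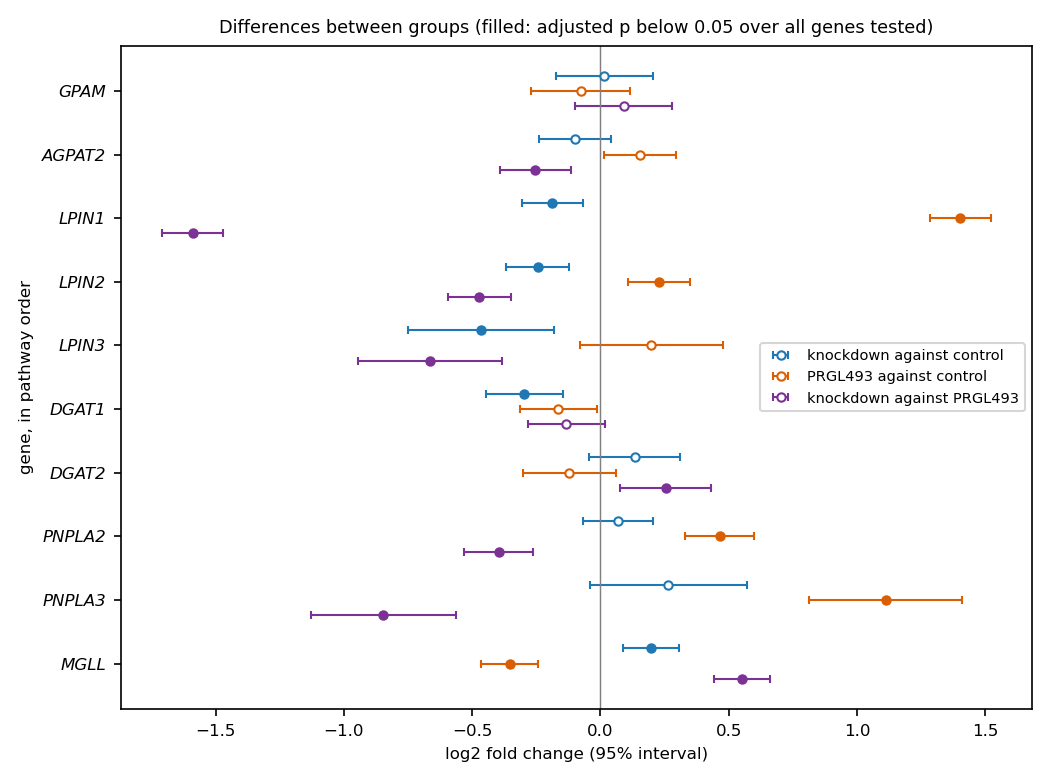
Log2 fold changes (x axis) with 95% intervals for the 10 genes in pathway order (y axis), for each treatment against control and for the knockdown against PRGL493, with filled points for an adjusted p below 0.05 over all genes tested. LPIN1, PNPLA3 and PNPLA2 lie to the right for PRGL493, and MGLL lies to the left for PRGL493 and to the right for the knockdown. Filled points in the comparisons with PRGL493 describe the libraries and are no test of the genes.

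Set directly against each other, the 2 treatments were called different for 8 of the 10 genes, where 50.4% of all genes were called, 24.4% higher in the knockdown and 26.0% lower. DGAT2 and MGLL were higher in the knockdown, and LPIN1, LPIN2, LPIN3, AGPAT2, PNPLA2 and PNPLA3 were lower. The widest of these differences was that of LPIN1, -1.59 on the log2 scale (interval -1.71 to -1.47). PNPLA3 differed by -0.85, LPIN3 by -0.66 and MGLL by 0.55. GPAM and DGAT1 were not called, with differences of 0.09 (interval -0.10 to 0.28) and -0.13 (interval -0.28 to 0.02). Without knockdown replicate 2 the DGAT1 difference was -0.17 and was called. This comparison uses the PRGL493 libraries that helped choose the genes, so it too is a description.

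Per exon length the order of the 10 genes in control cells ran from PNPLA2 and AGPAT2 at the top to PNPLA3 at the bottom. This order depends on the exon unions, which ran from 1798 bases for AGPAT2 to 11861 for LPIN1, with MGLL at 11849. PNPLA2 was at 47.7 ± 2.41 CPM per kb and AGPAT2 at 40.6 ± 1.36 (SD, n = 3). LPIN2 followed at 16.8 ± 0.647, then DGAT1 at 9.96 ± 0.7004 and MGLL at 8.92 ± 0.147. LPIN3 and LPIN1, at 3.99 ± 0.223 and 3.74 ± 0.107, did not differ beyond their spread. DGAT2 at 1.84 ± 0.0948, GPAM at 1.145 ± 0.0961 and PNPLA3 at 0.854 ± 0.0921 were the lowest. With PRGL493 the level of LPIN1 was 9.88 ± 0.235 CPM per kb, above DGAT1 (8.88 ± 0.557) and MGLL (6.98 ± 0.156), both of which exceeded it in control. PNPLA3, at 1.85 ± 0.1004 with PRGL493, was likewise above GPAM (1.09 ± 0.0725). GPAM was thus the lowest member in the PRGL493 libraries, while other acyltransferases of the first step (GPAT2, GPAT3 and GPAT4) are outside the 10 genes.

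Across the 9 libraries LPIN1 ran with PNPLA3 (Pearson r = 0.918 on log2 CPM) and PNPLA2 (r = 0.894) and against MGLL (r = -0.956), while LPIN2 ran with LPIN3 (r = 0.892). These values describe libraries that fall into 3 groups and share their scaling. Among 305 genes with a mean of at least 2 log2 CPM and at least 1 log2 unit between group means, the 6 whose pattern was most like that of LPIN1 were ABHD15 (r = 0.990), HTRA1 (0.990), DHCR7 (0.988), MCM9 (0.983), MXD4 (0.983) and FBXO9 (0.980). DHCR7 is the last enzyme of cholesterol synthesis, MXD4 is a partner of MAX in the MYC network, and HTRA1 is a secreted protease. In the PRGL493 libraries these 6 genes were 1.75-fold (FBXO9) to 2.16-fold (MCM9) the control level, in each case less than LPIN1. Since they were picked by correlation with LPIN1 over the same libraries, that they rose there follows from the choice.

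**Figure D4:**
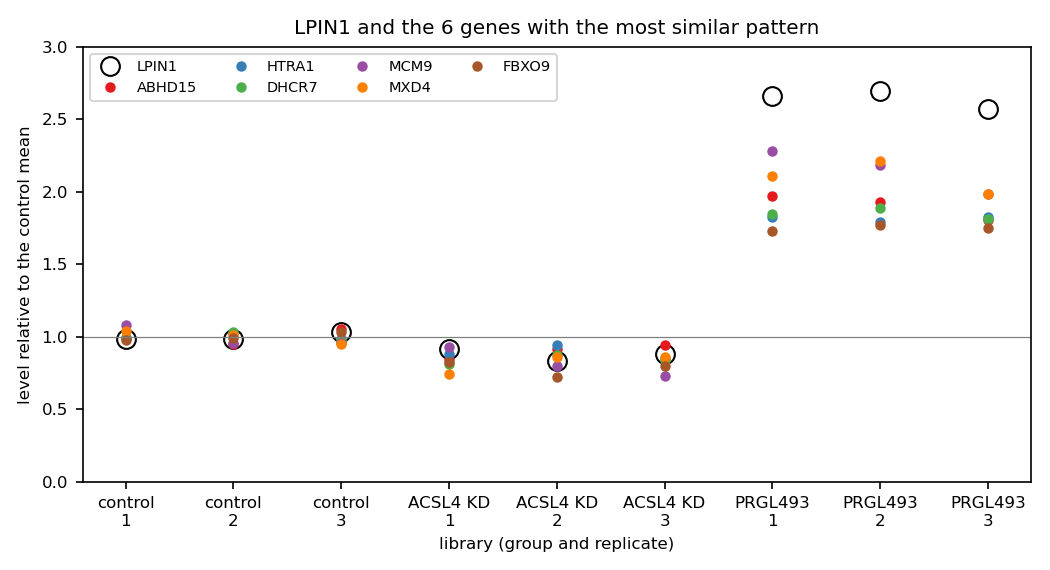
Level of LPIN1 (open circles) and of the 6 genes most like it (coloured points), each divided by its own control mean (y axis, from 0), in each library (x axis). The 3 PRGL493 libraries hold all 7 genes at their highest, with LPIN1 above the other 6. The 6 genes were picked for their likeness to LPIN1 over these same libraries, so the shared pattern follows from the choice.

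Of 20 further genes of the acylation and phosphatase steps, 16 were tested. In the knockdown 3 rose and 4 fell (43.8% called; median log2 difference -0.02), and with PRGL493 2 rose and 4 fell (37.5%; median -0.08), beside 30.1% and 41.8% of all genes. GPAT3 and GPAT4, glycerol-3-phosphate acyltransferases of the endoplasmic reticulum, passed the test in both comparisons. GPAT3 went from 61.6 ± 3.72 CPM in control to 75.4 ± 0.961 in the knockdown (0.29; edgeR adjusted p = 0.000954) and 50.5 ± 0.999 with PRGL493 (-0.29; edgeR adjusted p = 0.000652). GPAT4 did the reverse, from 107 ± 3.35 to 92.9 ± 3.36 (-0.20; edgeR adjusted p = 0.00847) and 128 ± 3.21 CPM (0.26; edgeR adjusted p = 0.000693). AGPAT4, of the same family as AGPAT2, fell from 13.7 ± 0.505 to 8.28 ± 0.956 CPM in the knockdown (-0.72; edgeR adjusted p = 2.65e-05). AGPAT3 rose (0.25) and AGPAT5 fell (-0.34) with PRGL493. GPD1L fell in the knockdown (-0.26) and GPAT2 fell with PRGL493 (-0.30). PLPP3 and PLPP2, listed under their older symbols PPAP2B and PPAP2C, are phosphatases of phosphatidate outside the lipin family: PLPP3 rose in the knockdown (0.28) and PLPP2 fell with PRGL493 (-0.37). The fall of GK, glycerol kinase, in the knockdown (-0.28) did not pass without control replicate 3 (-0.20) or knockdown replicate 3 (-0.28).

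Lipolysis and lipid droplet genes numbered 28, of which 22 were tested. In the knockdown 2 rose and 4 fell (27.3% called; median -0.03), and with PRGL493 4 rose and 4 fell (36.4%; median -0.03), shares below the 30.1% and 41.8% called over all genes. G0S2 and HILPDA are small inhibitors of PNPLA2, and ABHD5 is its coactivator. G0S2 was at 245, 227 and 221 CPM in control, 182, 206 and 194 in the knockdown and 124, 117 and 117 with PRGL493. It fell with PRGL493 (-0.95, SE 0.06; edgeR adjusted p = 1.51e-09) and in the knockdown (-0.25, SE 0.06; edgeR adjusted p = 0.00324), and the knockdown stood above PRGL493 by 0.70, SE 0.06 (edgeR adjusted p = 5.25e-08). HILPDA was at 28.1, 25.4 and 24.5 CPM in control, 33.4, 42.2 and 34.1 in the knockdown and 16.8, 17.0 and 15.2 with PRGL493. It rose in the knockdown (0.49, SE 0.09; edgeR adjusted p = 0.000513; 0.38 without replicate 2, the highest library) and fell with PRGL493 (-0.67, SE 0.09; edgeR adjusted p = 2.62e-05). ABHD5 fell from 47.4 ± 2.01 to 40.3 ± 1.38 CPM with PRGL493 (edgeR adjusted p = 0.00367) and stood at 48.1 ± 1.11 in the knockdown (edgeR adjusted p = 0.813).

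The droplet coat protein PLIN2, whose RNA is often read beside droplet content, was at 94.2, 97.4 and 95.2 CPM in control, 108, 119 and 109.5 in the knockdown and 66.1, 65.4 and 62.4 with PRGL493. The groups did not overlap: PLIN2 rose in the knockdown (0.23, SE 0.05; edgeR adjusted p = 0.00449) and fell with PRGL493 (-0.56, SE 0.05; edgeR adjusted p = 5.48e-07). PLIN3, a coat protein of small droplets, rose with PRGL493 (0.20), but not past the threshold without PRGL493 replicate 1 (0.18). FITM2, which serves droplet budding, fell in the knockdown (-0.52). PNPLA6, a lysophospholipase, rose with PRGL493 (0.32). LDAH rose there too (0.32), but its call was lost without control replicate 1 (0.28) or PRGL493 replicate 2 (0.27). The fall of PLIN5 in the knockdown (-1.08) was called by edgeR but not by DESeq2, and was lost on leaving out any 1 library other than knockdown replicate 1 (-0.75 to -1.13). AUP1, a droplet protein of the ubiquitin system, fell in the knockdown (-0.25) and rose with PRGL493 (0.21). Its knockdown call was lost without control replicate 2 (-0.22) or knockdown replicate 3 (-0.23), and its PRGL493 call without control replicate 1 or 3 or any PRGL493 replicate (0.19 to 0.21). LPL, the lipoprotein lipase listed here among adipocyte markers, fell from 10.3 ± 0.861 to 4.16 ± 0.619 CPM with PRGL493 (-1.32). It was named for its level, outside the rule used for the other genes, and its value under the alternative settings is not given.

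**Figure D5:**
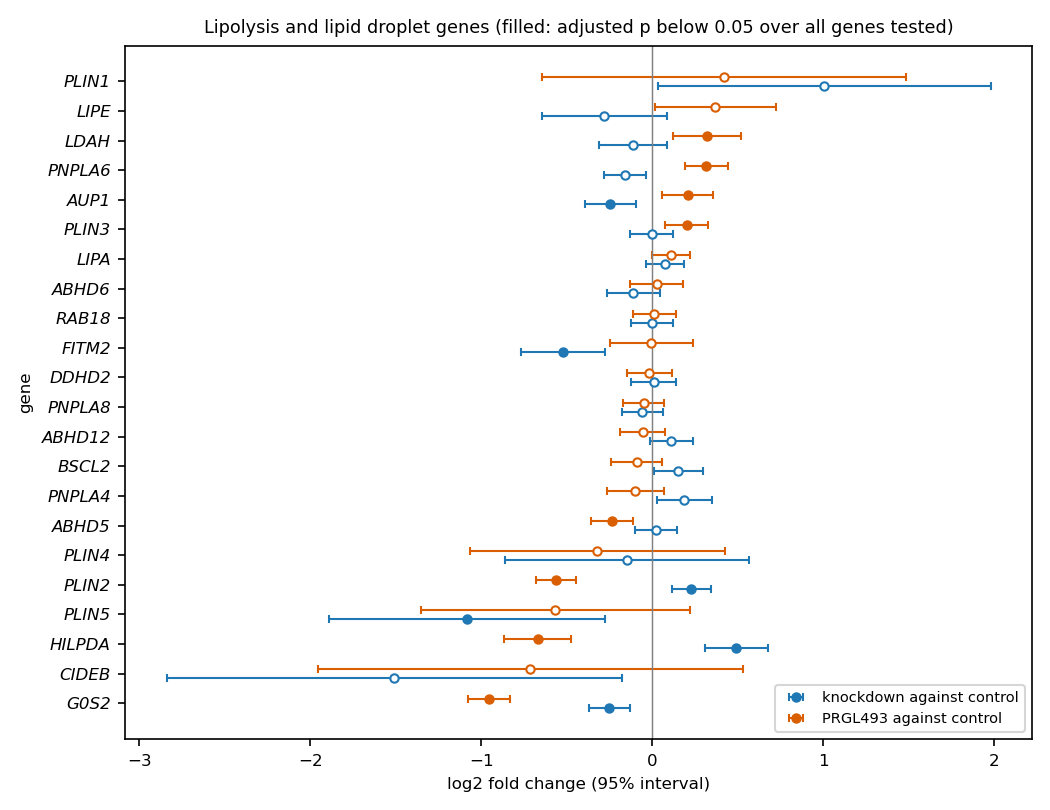
Log2 fold changes (x axis) with 95% intervals for the 22 tested lipolysis and lipid droplet genes (y axis), knockdown against control and PRGL493 against control, with filled points for an adjusted p below 0.05 over all genes tested. HILPDA and PLIN2 lie to the right for the knockdown and to the left for PRGL493, and G0S2 lies to the left for both.

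Genes that take phosphatidate or diacylglycerol to phospholipids and signalling lipids numbered 27, with 24 tested. In the knockdown 1 rose and 5 fell (25.0% called, beside 30.1% of all genes; median -0.06). With PRGL493 5 rose and 4 fell (37.5% called, beside 41.8% of all genes, with a median of -0.01). In this comparison 7 rose and 7 fell without knockdown replicate 2 or when the 2 groups were fitted alone. Calls over all genes rose as well, from 3030 higher and 2879 lower of 14135. They were 3720 and 3412 of 14282 without knockdown replicate 2, and 3678 and 3536 of 13831 with the 2 groups alone. PCYT2, the rate-limiting enzyme of phosphatidylethanolamine synthesis from diacylglycerol, rose from 40.3 ± 2.17 to 74.9 ± 2.42 CPM with PRGL493 (0.89; edgeR adjusted p = 8e-08). CHKA, a choline kinase, rose from 43.3 ± 1.36 to 65.4 ± 1.94 CPM (0.59; edgeR adjusted p = 1.06e-06). The diacylglycerol kinase DGKQ makes phosphatidate from diacylglycerol, the opposite conversion to that of the lipins. It fell in the knockdown (-0.38, edgeR adjusted p = 0.000628) and rose with PRGL493 (0.39, edgeR adjusted p = 0.000228). Its relative DGKA fell with PRGL493 (-0.39), and DGKZ fell in the knockdown (-0.25). The knockdown calls for CDS2 (0.19) and PCYT1A (-0.27) were lost without control replicate 1, where they were 0.17 and -0.22, and that for CDS2 also without knockdown replicate 3 (0.16).

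All 22 listed transcription regulators of lipid genes were tested; in the knockdown 0 rose and 4 fell (18.2% called, beside 30.1% of all genes; median -0.03), and with PRGL493 8 rose and 4 fell (54.5%, beside 41.8%; median 0.09). In the knockdown 0 regulators were higher at an unadjusted p below 0.05 by edgeR, and 0 were called higher by DESeq2. The differences there ran from -0.83 to 0.12 on the log2 scale. SREBF1, the main activator of fatty acid and triglyceride synthesis genes, was at 212, 198 and 188 CPM in control, 152, 155 and 165 in the knockdown and 312, 323 and 295 with PRGL493. It fell in the knockdown (-0.34, SE 0.06; edgeR adjusted p = 0.000243) and rose with PRGL493 (0.64, SE 0.06; edgeR adjusted p = 1.6e-07). SREBF2, its counterpart for sterol synthesis and uptake, was at 198, 203 and 195 CPM in control, 164, 154 and 176 in the knockdown and 283, 286 and 259.6 with PRGL493 (-0.27; edgeR adjusted p = 0.00167; and 0.48; edgeR adjusted p = 4.52e-06). Both genes, like LPIN1 and LPIN2, were lowest in the knockdown and highest with PRGL493 with no overlap between groups. This order was not particular to them. GPAT4, DGKQ, AUP1, SCAP and TFE3 of the further lists had it too, while MGLL, GPAT3, HILPDA and PLIN2, among others, had the reverse. The share of all genes with either order was not counted, and a link to LPIN1 was not tested. PPARG, the adipogenic nuclear receptor, fell with PRGL493 from 31.9 ± 2.74 to 24.9 ± 0.215 CPM (-0.36; edgeR adjusted p = 0.000597). PPARGC1A, a coactivator that lipin 1 is known to partner in the nucleus, and its relative PPARGC1B fell as well (-0.64 and -0.81, edgeR adjusted p = 0.000811 and 0.000154). The fall of SCAP in the knockdown (-0.18) was not called without control replicate 1 or 2 (-0.16 in each), and that of CEBPB with PRGL493 (-0.92) was lost on leaving out control replicate 1 or 2 or any PRGL493 replicate (-0.76 to -1.01).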

How the data were processed

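RNA-seq of MDA-MB-231 cells was deposited as 1 table of 26475 gene symbols by 9 libraries, in 3 groups of 3. The deposited values are expected counts that the authors estimated per gene, not scaled for depth, as read from the values themselves. About 10.0% to 11.3% per library were not whole, and all were rounded before testing; the design had assumed whole counts. The genome build was GRCh38, per the submitters' processing notes; the sources used here name no aligner, counter, annotation or strand setting. Genes were filtered with filterByExpr, scaled by TMM and tested by edgeR 4.0.16 (R 4.3.3; robust quasi-likelihood fit to all 9 libraries, group as the only term, 6 residual degrees of freedom). Benjamini-Hochberg adjustment ran over 14135 genes, with calls below 0.05; 95% intervals use the moderated SE. The biological coefficient of variation was 6.38%. The scripts were tested on simulated data.

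The 10 genes and all lists were chosen with earlier results of these data known. Named in addition were, per list and direction, up to 4 called genes of smallest adjusted p, direct partners of the members, and the 6 genes most correlated with LPIN1. The adipocyte marker LPL was named outside this rule. Promoter windows came from RefSeq, exon lengths from GENCODE 29. The 17 alternatives covered scaling, filters, DESeq2 1.42.0, a replicate block, fits of 2 groups and each library left out. Deviations of same-numbered libraries correlated at 0.0619 to 0.152 between control and knockdown and at -0.0841 to -0.0151 in pairs with PRGL493; since not every pair passed 0.1, the numbers were not taken as pairs.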

Additional observations from a re-analysis of the deposited data

Results flagged for a closer look

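In 8 of the 10 genes the effect of the knockdown and that of PRGL493, each taken against the same control libraries, were called different when both treated groups were compared directly. The log2 difference, knockdown minus PRGL493, was -1.59 for LPIN1, -0.47 for LPIN2, -0.66 for LPIN3, -0.25 for AGPAT2, -0.40 for PNPLA2 and -0.85 for PNPLA3. It was 0.25 for DGAT2 and 0.55 for MGLL. Over all genes tested 50.4% were called in the same comparison. The PRGL493 libraries helped choose the 10 genes, so these values are a description and not a test of them. Groups of 3 libraries are too small for the check for single outlying samples.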

How the results depend on the processing

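Of 510 recomputed values of the 10 genes, 489 kept direction and call, 13 gained a call, 6 lost one and 2 changed sign. With 1 library left out, GPAM in the knockdown ran from -0.0525 to 0.0598 on the log2 scale (-0.03 without knockdown replicate 1), ABHD5 in the knockdown from -0.00118 to 0.0567 and ACSL4 with PRGL493 from -0.0397 to 0.0306 (0.018 without PRGL493 replicate 1); by library totals alone the last was 0.0103, and none of these passed. Called members numbered 4 to 6 in the knockdown, 5 to 7 with PRGL493 and 7 to 9 between the treatments when 1 library was left out. Phosphatidate and diacylglycerol branch calls with PRGL493 went from 9 to 14 with only the 2 groups compared, and ran from 8 to 14 with 1 library left out. Over all genes the calls also rose with only the 2 groups compared, from 3030 higher and 2879 lower to 3678 and 3536. The cause was not tested. With a replicate block, 5, 5 and 8 members were called, as without it; over all genes the knockdown gave 1869 higher and 2010 lower calls against 2083 and 2167, and the block ended the calls of PEMT with PRGL493 and HTRA1 in the knockdown. All 6 control and knockdown libraries correlated best with the same-numbered library (r = 0.108, 0.152 and 0.0619 for numbers 1 to 3), a hint from the data at pairing between these groups, and 0 of the 3 PRGL493 libraries did. The share of higher calls in the knockdown was 49.0% with TMM, 58.7% with upper-quartile factors and 59.8% with library totals; between the treatments it was 48.4% and, with upper-quartile factors, 58.4%. PNPLA3, at 74 to 251 counts, was the member most limited by depth.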

Other observations

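INSIG1, which holds the sterol sensor SCAP in the endoplasmic reticulum, belongs to the list of regulators and was at 158, 165 and 159 CPM in control, 89.1, 92.5 and 88.8 in the knockdown and 273, 285 and 302 with PRGL493. The groups did not overlap, and their order was that of LPIN1 and of several other listed genes. INSIG1 fell in the knockdown (-0.83, SE 0.05, edgeR adjusted p = 2.6e-09) and rose with PRGL493 (0.84, SE 0.05, edgeR adjusted p = 1.47e-09). RXRA, a partner of lipid-sensing nuclear receptors, rose with PRGL493 from 82.5 ± 3.07 to 106 ± 5.49 CPM (0.37; edgeR adjusted p = 5.93e-05) and averaged 82.0 CPM in the knockdown. PLD2 and PLD1, which make phosphatidate from phosphatidylcholine, were each called in 1 comparison: PLD2 fell in the knockdown (-0.28) and PLD1 fell with PRGL493 (-0.27). CDS1, which turns phosphatidate to CDP-diacylglycerol, fell with PRGL493 (-0.33), and ETNK1, an ethanolamine kinase, rose (0.47).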
